A study of Mus musculus with 12 samples.

Results

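Genes of bone mineralization and of the osteoblast, the cell that lays down bone, were followed along the base, middle and apex of the mouse cochlea at postnatal day 0 (P0) and day 8 (P8). They are 9 genes chosen by name, with earlier results of these data known: Ibsp, Phex, Alpl, Ifitm5, Spp1, Dmp1, Mepe, Sp7 and Runx2. An array entry with 1 gene symbol represented 7 of the 9, among 19938 genes with such an entry. Spp1 and Runx2 had none in the probe annotation used and were not analysed here. A gene was tested if its mean log2 signal was above 6 in at least 1 of the 6 groups of age and region, which 6 of the 7 genes and 16306 genes in all met. Mepe stayed under that level in every group and is given by its values alone.

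The animals were untreated wild-type mice of the C57BL/6 background. Each of the 6 groups (3 regions at each of 2 ages) held 2 arrays, 12 in all, and each array was hybridized with RNA pooled from many cochleae. The otic capsule had been taken off, and the tissue used held the organ of Corti, the spiral limbus and the lateral wall. Within an age, the 3 regions of 1 dissection came from the same pool of temporal bones, so that each age is represented by 2 pools, called replicate 1 and replicate 2. The values are log2 signals from robust multiarray averaging (RMA), in which a difference of 1 is a factor of 2. The markers fixed for hair cells (5 of 5), for supporting cells and the tectorial membrane (4 of 4) and for the stria vascularis and lateral wall (7 of 7) were all above the level in at least 1 group.

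Bone forms when precursor cells turn into osteoblasts under the transcription factors RUNX2 and, acting later, SP7 (osterix), secrete a matrix rich in collagen and then fill it with mineral. Mineral grows where alkaline phosphatase removes pyrophosphate, an inhibitor of crystal growth. Acidic phosphoproteins that bind calcium are also part of the matrix. In the ear, the otic capsule is the bony shell around the cochlea, and its cartilage model is replaced by bone around and after birth in the mouse.

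The 9 genes fall into 4 kinds. Ibsp (bone sialoprotein), Dmp1 (dentin matrix protein, made by osteocytes and late osteoblasts), Mepe and Spp1 (osteopontin) encode acidic matrix phosphoproteins of 1 family, and they stand beside each other on chromosome 5 in the order Dspp, Dmp1, Ibsp, Mepe and Spp1 with no other protein-coding gene between them. Alpl encodes the tissue-nonspecific alkaline phosphatase, and Phex a membrane endopeptidase of osteoblasts and osteocytes that takes part in phosphate balance. Ifitm5 encodes a small membrane protein of mineralizing osteoblasts. Sp7 and Runx2 encode the transcription factors.

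Promoter windows are shown for Ibsp and Phex, the genes with the largest differences between the ages among the 6, and for Dmp1 and Ifitm5, with the largest differences between apex and base at P8. They run from 250 bases before to 50 bases after the start site, 5′ to 3′ on the gene's strand, and are RefSeq sequences of the build GRCm38.p6. Capitals mark any match, on either strand, to the letters of 4 known motifs: the RUNX core (ACCACA), the GC box (GGGCGG), the TATA box (TATAAA) and the homeodomain core (TAATTA).
Ibsp, chr5:104299037-104299336, + strand: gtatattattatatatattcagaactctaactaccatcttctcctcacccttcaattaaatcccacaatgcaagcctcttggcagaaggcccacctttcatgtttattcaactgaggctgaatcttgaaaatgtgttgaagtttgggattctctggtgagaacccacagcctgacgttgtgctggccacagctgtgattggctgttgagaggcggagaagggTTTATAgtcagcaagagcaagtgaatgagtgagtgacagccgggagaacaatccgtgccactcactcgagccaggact
Dmp1, chr5:104202367-104202666, + strand: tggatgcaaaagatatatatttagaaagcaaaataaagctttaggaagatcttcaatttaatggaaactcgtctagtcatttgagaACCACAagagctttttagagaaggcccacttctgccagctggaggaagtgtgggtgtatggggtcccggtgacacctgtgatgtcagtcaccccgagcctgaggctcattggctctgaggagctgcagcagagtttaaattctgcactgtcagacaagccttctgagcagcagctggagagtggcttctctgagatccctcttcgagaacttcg
Ifitm5, chr7:140950194-140950493, − strand: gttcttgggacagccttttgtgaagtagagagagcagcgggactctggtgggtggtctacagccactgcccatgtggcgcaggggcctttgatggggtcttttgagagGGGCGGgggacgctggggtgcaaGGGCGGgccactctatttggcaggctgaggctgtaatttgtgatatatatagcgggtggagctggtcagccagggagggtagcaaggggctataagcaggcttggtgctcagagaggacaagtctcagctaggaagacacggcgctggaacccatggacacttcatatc
Phex, chrX:157415237-157415536, − strand: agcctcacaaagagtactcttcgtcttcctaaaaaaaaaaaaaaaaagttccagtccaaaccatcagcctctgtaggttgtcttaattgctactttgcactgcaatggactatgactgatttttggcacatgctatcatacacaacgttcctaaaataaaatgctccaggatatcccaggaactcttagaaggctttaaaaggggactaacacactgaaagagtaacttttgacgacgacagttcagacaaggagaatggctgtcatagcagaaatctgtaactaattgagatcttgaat

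The capitals show a TATA box on the reverse strand at -28 from the start site of Ibsp, a RUNX core at -164 in this window of Dmp1, which has another start site with no match, and GC boxes at -142 and -119 in Ifitm5. No match overlapped another in these windows. The Phex window held none of the 4 motifs. The RefSeq table held 11 windows for 8 of the 9 genes, all but Sp7. A RUNX core was found in 4 of the 11 windows (of Dmp1, Mepe, Runx2 and Spp1) and in 16.8% of 32851 windows of all genes. A TATA box was found in 4 of the 11 windows (of Alpl, Ibsp, Mepe and Spp1) and in 13.6% of all windows. A GC box was in 2 of the 11 (of Alpl and Ifitm5) and in 35.7% of all, and a homeodomain core in 2 (of Mepe and Spp1) and in 5.29%. These matches are of letters and were not tested for binding.

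To ask how the bone genes change during the first postnatal week, P8 was compared with P0. All 6 tested genes rose, from 2.30-fold for Ifitm5 to 37.3-fold for Ibsp as the mean of the 3 regions. The Ibsp fold rests on P0 signals mostly near the level of 6, with the mean of the P0 middle under it. In each of the 6, every P8 array was above every P0 array, a separation found for 8.08% of all tested genes. All 6 passed the test of this contrast by limma, which asked for a fold of 2 or more and a p under 0.05 after Benjamini-Hochberg adjustment across the table, and 2.06% of tested genes passed in that direction. The median difference was 1.92 on the log2 scale over the 6 genes and -0.00 over all tested genes. Since the genes were chosen with earlier results known, these shares and those below describe the set and do not test it.

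**Figure D1:**
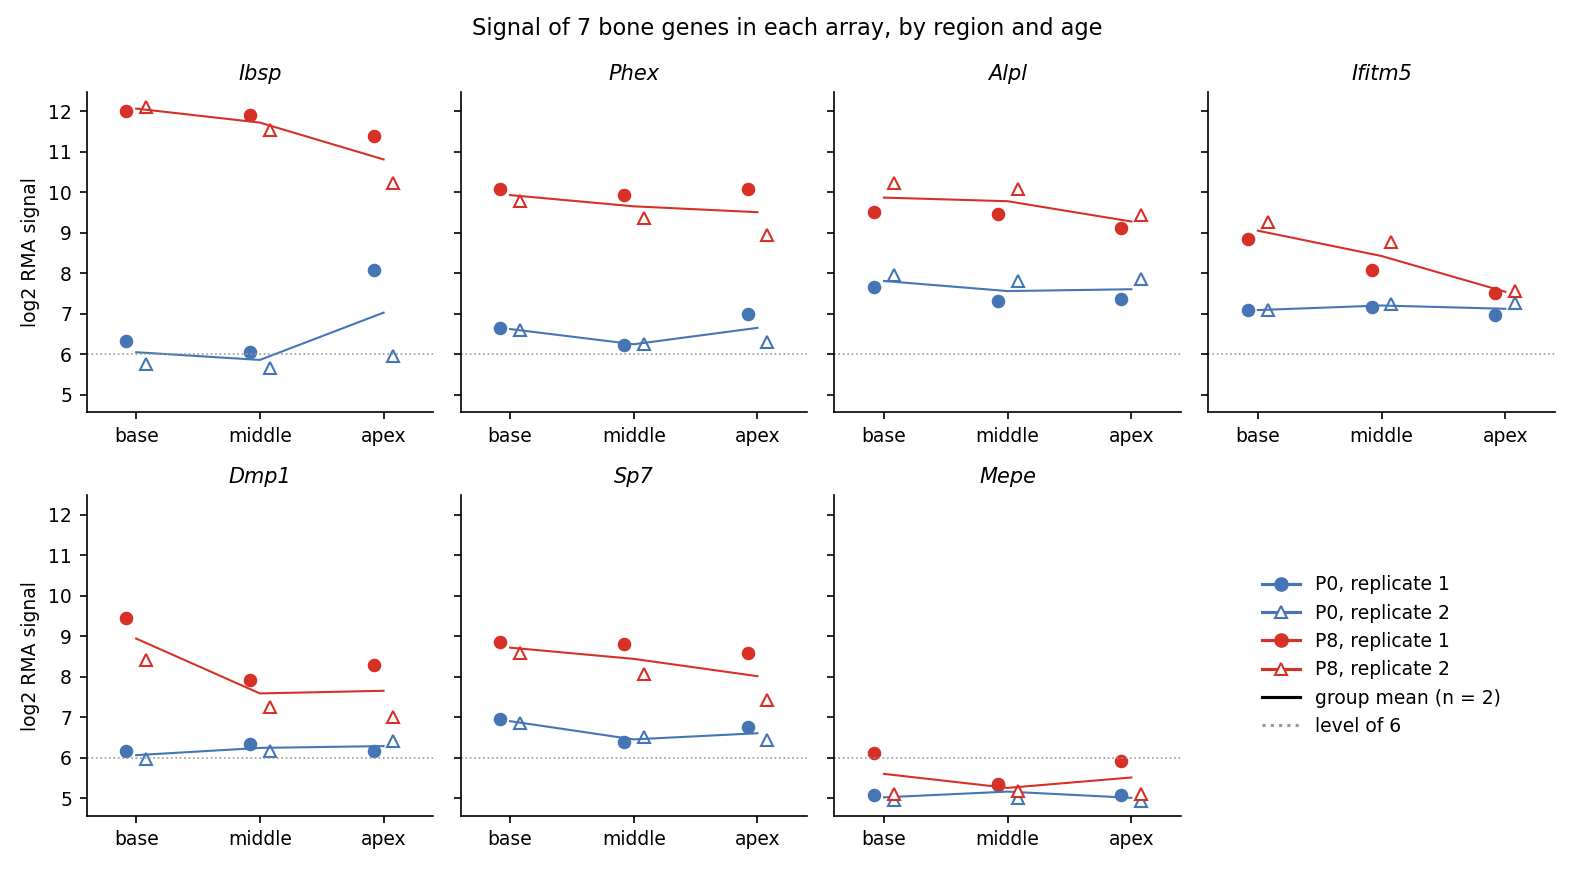
Log2 RMA signal of the 7 genes in each of the 12 arrays, by region on the horizontal axis, with P0 in blue and P8 in red. Filled circles are replicate 1, open triangles are replicate 2, lines join the means of 2 arrays, and the dotted line is the level of 6. P8 lies above P0 in every region for 6 genes, while Mepe stays near or under the level.

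Ibsp, the bone sialoprotein gene, had log2 signals of 6.33 and 5.76 in the P0 base (replicates 1 and 2), 6.06 and 5.65 in the P0 middle, and 8.08 and 5.96 in the P0 apex. At P8 its signals were 12.01 and 12.11 in the base, 11.90 and 11.54 in the middle, and 11.39 and 10.22 in the apex. The P0 signals were close to the level of 6 but for the apex of replicate 1, and the lowest P8 array was above all of them. The difference between P8 and P0 was 5.22 ± 0.36 (SE of the fit, n = 6 arrays per age, adjusted p = 3.34e-05 from limma), the largest of all 16306 tested genes. In bulk tissue, fewer cells of a type and less RNA per cell cannot be told apart, for this gene and those that follow.

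Dmp1, its neighbour on the chromosome, had signals of 6.15 and 5.97 in the P0 base, 6.33 and 6.15 in the P0 middle, and 6.17 and 6.40 in the P0 apex. At P8 they were 9.46 and 8.42 in the base, 7.92 and 7.25 in the middle, and 8.30 and 7.003 in the apex. The P0 arrays were close together, and at P8 replicate 1 was above replicate 2 in each region. The difference was 1.86 ± 0.26 (adjusted p = 0.00139 from limma). Mepe, of the same family, had a mean of 5.06 over the P0 arrays (4.93 to 5.33) and of 5.45 over the P8 arrays (5.09 to 6.10). The ages overlapped for Mepe, and with both means under the level no difference was read. Dspp, which encodes dentin sialophosphoprotein and is named here for its place on the other side of Dmp1, differed by 0.17 ± 0.08 (adjusted p = 0.199 from limma).

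Phex, the endopeptidase gene, had P0 signals of 6.65 and 6.59 in the base, 6.23 and 6.26 in the middle, and 6.998 and 6.30 in the apex. Its P8 signals were 10.07 and 9.78 in the base, 9.94 and 9.36 in the middle, and 10.07 and 8.94 in the apex. Each P8 array was thus well above the highest P0 array, with the widest spread between replicates in the apex. The difference was 3.19 ± 0.21 (9.13-fold, adjusted p = 2.96e-05 from limma), rank 9 of all tested genes from the highest.

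Alpl, the alkaline phosphatase gene, had P0 signals of 7.66 and 7.95 in the base, 7.30 and 7.81 in the middle, and 7.35 and 7.85 in the apex. The P8 signals were 9.50 and 10.23, 9.46 and 10.09, and 9.12 and 9.43 in the same order of regions. Replicate 2 was above replicate 1 in all 6 groups, and the ages did not overlap. The difference was 1.98 ± 0.19 (3.95-fold, adjusted p = 0.000169 from limma).

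Ifitm5, the gene of the osteoblast membrane protein, was flat at P0, with signals of 7.09 and 7.08 in the base, 7.15 and 7.25 in the middle, and 6.98 and 7.26 in the apex. At P8 it was 8.84 and 9.25 in the base, 8.08 and 8.76 in the middle, and 7.52 and 7.56 in the apex. The apex at P8 was therefore the group nearest to P0, although its lower array was still above the highest P0 array. The difference over the 3 regions was 1.20 ± 0.13 (2.30-fold, adjusted p = 0.000448 from limma).

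Sp7, the osterix gene, had P0 signals of 6.95 and 6.85 in the base, 6.39 and 6.51 in the middle, and 6.76 and 6.44 in the apex. At P8 the signals were 8.85 and 8.58, 8.80 and 8.08, and 8.59 and 7.43 in the same order. The ages were apart in every region, the lowest P8 array being replicate 2 of the apex. The difference was 1.74 ± 0.21 (3.33-fold, adjusted p = 0.00065 from limma).

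**Figure D2:**
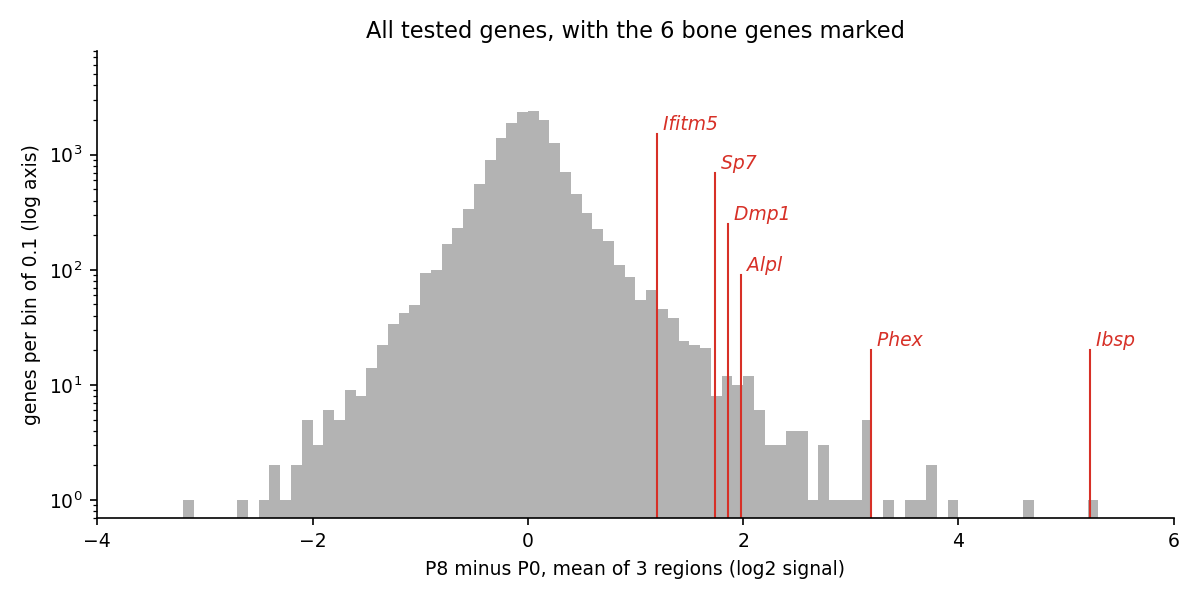
Differences between P8 and P0 (mean of 3 regions, log2 signal) of all 16306 tested genes as a histogram with a log axis of genes per bin of 0.1, with the 6 bone genes as red lines. Ibsp at 5.22 stands at the right end, Phex at 3.19 is the 9th from it, and the other 4 lie between 1.20 and 1.98.

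Only 2 pools stand behind the 6 arrays of each age, which the fit above takes as independent. With 1 value per pool, an alternative added after seeing the data, the differences were the same, none of the 6 genes passed (adjusted p from 0.0595 to 0.148 by limma) and 0.0307% of tested genes did, while all 6 had an unadjusted p under 0.05, as did 6.93% of tested genes in that direction.

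Within single regions, the number of the 6 genes that passed was highest in the base and lowest in the apex. In the base, all 6 passed (a fold of at least 1.5 was asked), where 2.34% of tested genes were called higher at P8. In the middle, 5 passed against 2.37% of tested genes, all but Dmp1, and in the apex 3 passed against 2.42%, namely Ibsp, Phex and Alpl. When the dissection set (the replicate number) was blocked on, 6 passed in the middle and 5 in the apex, all but Ifitm5, where 6.16% and 6% of tested genes were called. Unless said otherwise, each SE printed is that of the fit without a block, also where an adjusted p comes from a blocked fit.

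Ibsp was higher at P8 by 6.02 ± 0.62 in the base (64.7-fold), by 5.86 ± 0.62 in the middle, and by 3.78 ± 0.62 in the apex (adjusted p = 0.0108 from limma). The middle value is a lower bound, since the P0 middle was at a mean of 5.86, under the level. In the base the P0 mean was 6.05, close to the level, so the fold there depends on a low signal. The apical value moved with single arrays: it was 4.85 without the P0 apex array of replicate 1, 2.72 without that of replicate 2, and 3.20 without the P8 apex array of replicate 1, where the call was lost. Phex rose by 3.31 ± 0.37, 3.41 ± 0.37 and 2.86 ± 0.37 in the base, middle and apex, and Alpl by 2.06 ± 0.32, 2.22 ± 0.32 and 1.67 ± 0.32. For either gene the values of the 3 regions overlapped within their SE.

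Ifitm5 rose by 1.96 ± 0.23 in the base and by 1.22 ± 0.23 in the middle, and had a difference of 0.42 ± 0.23 in the apex, which did not pass (adjusted p = 0.396 by limma and 0.0943 when blocked). Dmp1 rose by 2.88 ± 0.45 in the base. Its differences in the middle (1.35 ± 0.45, adjusted p = 0.17) and apex (1.37 ± 0.45, adjusted p = 0.152) passed with the replicate block (adjusted p = 0.0104 and 0.00903, limma). Each of these blocked calls held in 10 of 12 fits with 1 array left out and was lost without the P0 or the P8 array of replicate 1 of its own region (adjusted p up to 0.113 in the middle and 0.121 in the apex). Without a block, the apical difference was 0.72 without the P8 apex array of replicate 1. Sp7 rose by 1.82 ± 0.36 in the base and 1.99 ± 0.36 in the middle, and its difference of 1.41 ± 0.36 in the apex passed with the replicate block (adjusted p = 0.0667 without it and 0.00253 with it, limma). Calls in single regions rested on few arrays: without 1 array, 3 to 6 genes passed in the base, 2 to 5 in the middle and 1 to 3 in the apex, the lowest counts being those without the P0 base, the P0 middle or the P8 apex array of replicate 1. In the middle, 3 passed without the P0 or without the P8 array of replicate 2.

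**Figure D3:**
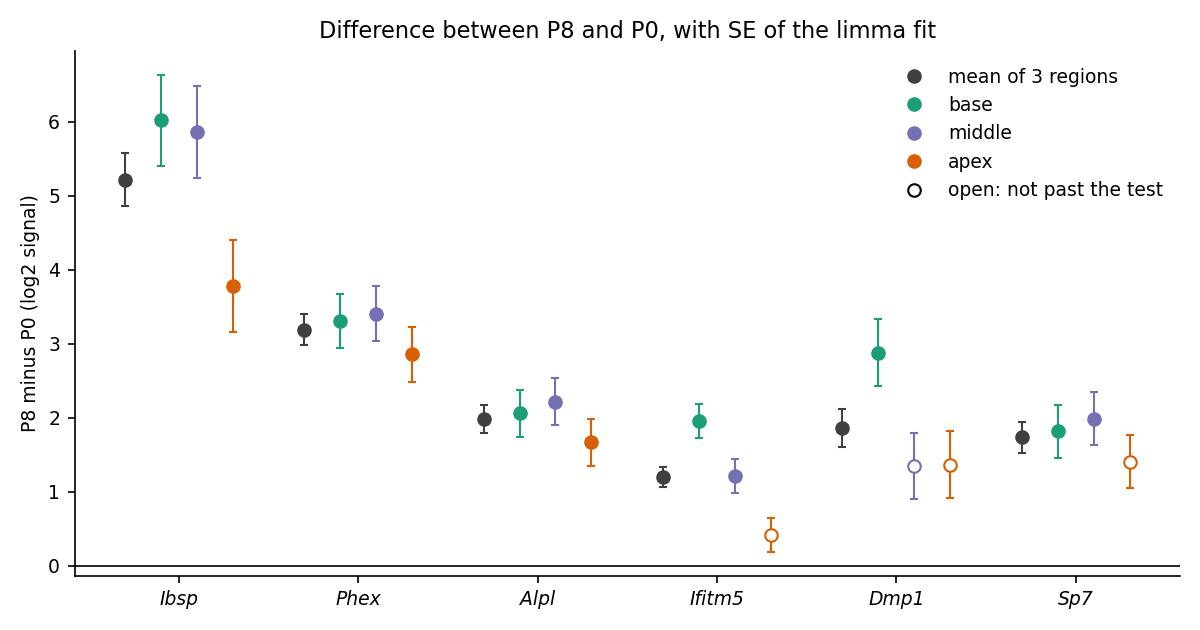
Differences between P8 and P0 in log2 signal for 6 genes, with the SE of the limma fit as bars, as the mean of 3 regions (n = 6 arrays per age) and in the base, middle and apex (n = 2 arrays per group). Open points did not pass the test. The apical point is the lowest of the 3 regions for every gene but Dmp1, whose middle and apex lie at 1.35 and 1.37.

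To ask whether the genes form a gradient along the cochlea, the apex was compared with the base at each age. At P0 none of the 6 genes passed, and their differences ran from -0.30 for Sp7 to 0.98 for Ibsp. Called lower in the apex were 0% of tested genes (0.27% when the replicate block was the dissection set, none of the 6 among them). None of the 6 had an unadjusted p under 0.05 at P0, where 3.08% of tested genes did in either direction. The Ibsp value joined 1.75 in replicate 1 and 0.20 in replicate 2, and without the P0 apex array of replicate 1 it was -0.08. At P0, Ibsp (means of 6.05 in the base and 5.86 in the middle) and Dmp1 (6.06, 6.24 and 6.28 from base to apex) were near the level of 6. For these genes a gradient at P0 could go unseen.

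At P8 all 6 genes had a lower mean in the apex than in the base, where 49.4% of all tested genes did. Their differences ran from -0.42 for Phex to -1.51 for Ifitm5, with a median of -0.98 against 0.00 over all genes. None passed the fit without a block, in which 0.0184% of tested genes were called lower in the apex, and 2 had an unadjusted p under 0.05 (Ifitm5 and Dmp1), as did 1.71% of tested genes in that direction. For Phex the difference was 0.14 without the P8 apex array of replicate 2. A replicate block on the dissection set let Ifitm5 pass, where 0.442% of tested genes were called. A block on the pool of each age compares apex and base inside 1 pool, and with it 5 of the 6 passed, all but Phex, where 1.26% of tested genes were called. In this fit no array was left out in turn. The SE values of that fit were 0.14 for Ifitm5, 0.15 for Dmp1, 0.33 for Ibsp, 0.17 for Sp7, 0.12 for Alpl and 0.19 for Phex. Those printed below are of the fit without a block unless named.

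Ifitm5 was lower in the apex in both pools (differences of -1.32 in replicate 1 and -1.69 in replicate 2), with a mean of -1.51 ± 0.23 (2.85-fold, adjusted p = 0.0537 from limma without a block, 0.000923 with the dissection set and 3.94e-05 with the pool as a block). This was the 4th lowest of all tested genes. With the dissection set as a block the call held with each of the 12 arrays left out in turn, an alternative added after seeing the data (adjusted p from 0.000489 to 0.0305, limma). Along the cochlea its P8 means were 9.05 ± 0.29, 8.42 ± 0.48 and 7.54 ± 0.03 (SD, n = 2 arrays) from base to apex. The step from base to middle was -0.63 ± 0.23 and that from middle to apex -0.88 ± 0.23, and of these neighbours the latter passed with the pool as a block (adjusted p = 0.0224 from limma) and the former did not (adjusted p = 0.0747).

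Dmp1 was lower in the apex than in the base in both pools (differences of -1.16 and -1.42), with a mean of -1.29 ± 0.45 (adjusted p = 0.84 without a block, 0.0653 with the dissection set and 0.000219 with the pool as a block, limma). With 1 array left out and no block it ran from -0.64 (without the P8 apex array of replicate 2) to -1.94 (without that of replicate 1). Its fall lay between the base, at a mean of 8.94 ± 0.73, and the middle, at 7.58 ± 0.48 (SD, n = 2 arrays). This step of -1.35 passed with the pool as a block (adjusted p = 0.00145 from limma, SE of 0.15 in that fit and 0.45 without a block). The middle and the apex, at 7.65 ± 0.92 (SD), differed by 0.07 ± 0.45 (SE without a block).

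Ibsp was lower in the apex in both pools (-0.62 in replicate 1 and -1.89 in replicate 2, mean -1.25 ± 0.62, adjusted p = 1 without a block and 0.0492 with the pool as a block, limma). Sp7 differed by -0.26 and -1.15 (mean -0.70 ± 0.36, adjusted p = 0.0315 with the pool as a block) and Alpl by -0.39 and -0.79 (mean -0.59 ± 0.32, adjusted p = 0.0132). The replicates agreed in direction for these 3 genes but not in size, and for none of them did the middle differ from a neighbouring region past the test, with or without a block. For Phex the pools differed by 0.00 and -0.85 (mean -0.42 ± 0.37, adjusted p = 0.255 with the pool as a block, limma). Mepe had P8 signals of 6.10 and 5.09 in the base and 5.91 and 5.11 in the apex, all but 1 of them under the level of 6.

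**Figure D4:**
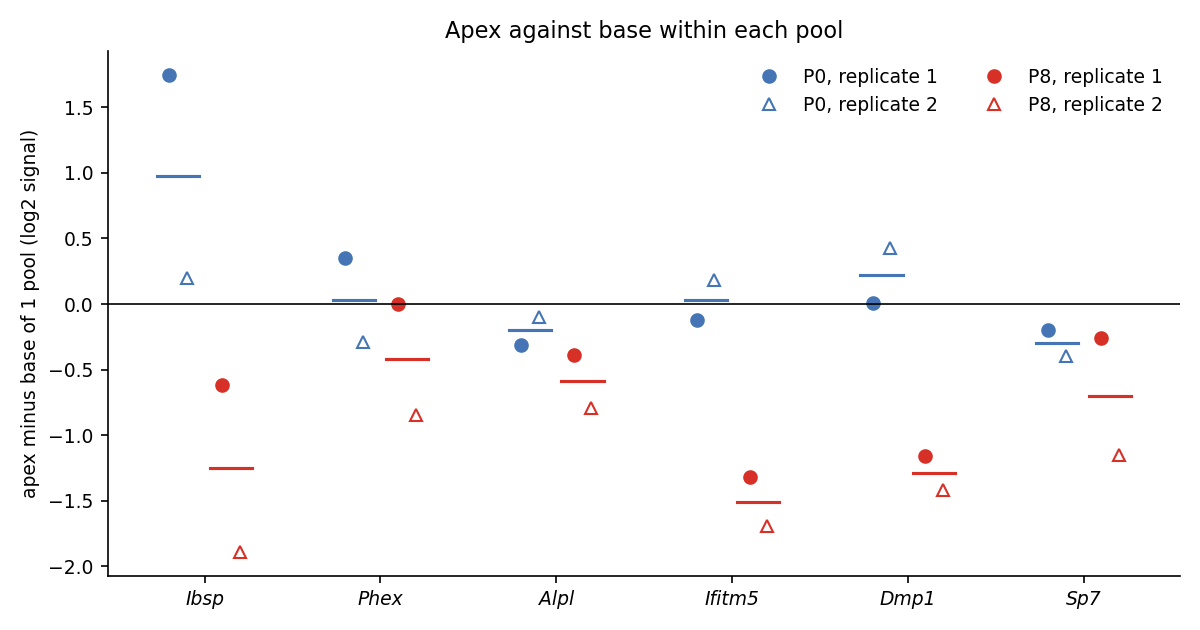
Apex minus base of each pool in log2 signal, for P0 (blue) and P8 (red), with filled circles for replicate 1, open triangles for replicate 2 and bars for their mean. At P8 the pools of Ifitm5 lie at -1.32 and -1.69 and those of Dmp1 at -1.16 and -1.42. At P0 the pools of Ifitm5 lie at -0.12 and 0.18 and those of Dmp1 at 0.01 and 0.43.

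Whether the gradient itself differed between the ages was asked by subtracting the P0 difference between apex and base from that at P8. This change was negative for all 6 genes, from -0.39 for Alpl to -2.23 for Ibsp, and 54.6% of all tested genes had a negative change. None of the 6 genes and 0% of tested genes passed without a block, and 3 of the 6 (Ibsp, Ifitm5 and Dmp1) had an unadjusted p under 0.05, as did 0.724% of tested genes in that direction. For Phex and Sp7 the sign rested on 1 array, and the changes were 0.11 and 0.18 without the P8 apex array of replicate 2. With the dissection set as a block, Ifitm5 passed at -1.54 ± 0.33 (adjusted p = 0.0366 from limma, SE without a block), where 0.0368% of tested genes were called. This call held in 2 of 12 fits with 1 array left out (adjusted p from 0.0203 to 0.245). With the pool as a block, Ibsp (-2.23, adjusted p = 0.0448), Ifitm5 (-1.54, adjusted p = 0.00218) and Dmp1 (-1.51, adjusted p = 0.00339) passed, where 0.337% of tested genes were called. The Ibsp value was -1.17 without the P0 apex array of replicate 1. Ibsp and Dmp1 were near the level of 6 at P0, so a P0 gradient could go unseen in their changes.

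Other genes of bone were taken from 5 lists. In the list of osteoblast matrix, collagen and mineral-forming genes, 4 of 11 tested genes rose from P0 to P8 and none fell (1.14% of all tested genes were called lower at P8), with a median difference of 0.68. Phospho1, a phosphatase of matrix vesicles, rose by 2.48 ± 0.19 (adjusted p = 6.43e-05), and Smpd3, the neutral sphingomyelinase needed for mineralization in mice, by 2.31 ± 0.11 (adjusted p = 7.03e-06). Kazald1, a secreted protein related to the insulin-like growth factor binding proteins, rose by 2.10 ± 0.17 (adjusted p = 8.28e-05, all from limma). Omd, the gene of the keratan sulfate proteoglycan osteomodulin, rose by at least 1.24 (adjusted p = 0.0391), with the P0 means under the level.

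Of the same list, Smpd3 was lower in the apex than in the base at P8 (-0.91) when the dissection set was blocked on (adjusted p = 0.0194). With the same block Slc20a1, a phosphate transporter gene named here after its values were seen, was higher by 0.77 (adjusted p = 0.0149). In that fit 1.13% of all tested genes were called higher in the apex. Neither gene passed without a block (adjusted p = 0.198 for Smpd3 and 0.138 for Slc20a1, limma). Kazald1 had P8 means of 10.40, 10.49 and 10.56 from base to apex, with an apex-base difference of 0.16 ± 0.30. The list as a whole had a median of -0.21 for apex over base at P8, 8 of its 11 genes being lower in the apex, as were 49.4% of all tested genes.

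Among osteoblast transcription factors and receptors, 1 of 12 rose and none fell at P8, with a median of 0.12, beside the 2.06% of all tested genes that rose and the 1.14% that fell. The same shares stand beside the counts of the lists that follow. This gene was Dlx5, a homeobox factor of the osteoblast lineage, at 2.03 ± 0.30 (adjusted p = 0.002 from limma). Pth1r, the receptor of parathyroid hormone and its related peptide, differed by 0.57 ± 0.09 and was under the fold asked for. At P8 its apex-base difference was -0.80, which passed with the dissection set as a block (adjusted p = 0.0213, and 0.174 without it).

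Of 6 osteocyte genes 1 rose, Tnfrsf11b, which encodes osteoprotegerin, the decoy receptor that restrains osteoclasts, by 1.97 ± 0.14 (adjusted p = 4.65e-05 from limma). Of 5 tested inhibitors of mineral or pyrophosphate handlers and of 14 tested relatives and chromosome neighbours of the 9 genes, none passed in either direction in this age contrast, with medians of 0.25 and 0.08. The limma fit with the dissection set as a block gave the same counts for all 5 lists in this contrast.

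Markers of other cell types moved with some of these differences. The mean signal of 11 osteoclast markers was 6.72 to 6.85 over the P0 arrays and 6.96 to 7.46 over the P8 arrays, and at P8 it was 7.39 and 7.46 in the base and 6.96 and 7.30 in the apex. Of its 8 tested genes 2 rose, while Calcr, Atp6v0d2 and Dcstamp were under the level in every group. The mean of 20 cartilage markers was 8.50 to 9.22 at P0 and 9.03 to 9.50 at P8, with 2 genes rising and 1 falling between the ages. At P8, 15 of the 20 cartilage genes were lower in the apex than in the base (median -0.27), and 17 of 20 had a negative change of the apex-base difference. Beside these counts, 49.4% of all tested genes were lower in the P8 apex and 54.6% had a negative change. The mean of 5 tendon and ligament markers was 7.41 to 7.92 at P0 and 7.86 to 8.75 at P8. At P8 it was 8.55 and 8.75 in the base, 8.22 and 8.40 in the middle, and 7.86 and 7.99 in the apex. With the dissection set as a block, 2 of these 5 genes were called lower in the apex, as were 0.442% of all tested genes.

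All 10 macrophage markers were higher at P8 than at P0 in their difference (median 0.37, none past the test), as were 49.8% of all tested genes. All 10 were lower in the P8 apex than in the P8 base (median -0.35, none past the test), beside 49.4% of all tested genes. A negative change of the apex-base difference was seen in 9 of 10, beside 54.6% of all tested genes. The mean of 4 red blood cell markers ran from 6.54 to 6.74 over the P0 arrays and from 6.74 to 6.96 over the P8 arrays, with none past the test. Of 7 genes of the stria vascularis and lateral wall, 4 rose. In the P8 apex 6 of 7 were lower than in the P8 base (median -0.24, none past the test), beside the same 49.4%. At P0, 6 of 7 were lower in the apex as well (median -0.40), beside 42.8% of all tested genes. With the dissection set as a block 2 of these passed at P0, beside 0.27%. The change of the apex-base difference was negative in 2 of the 7 (median 0.06), beside the same 54.6%. That change was negative in 4 of 8 tested osteoclast genes and in 4 of 5 tendon and ligament genes. The part of any of these tissues in the rise and in the gradient of the bone genes was not tested.

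In the P0 apex array of replicate 1, in which Ibsp was high, the mean of 10 skeletal muscle markers was 7.71, where the other 11 arrays ran from 6.43 to 6.93, and the cartilage markers were at 9.22 against 8.50 in replicate 2. The muscle marker Myh3 was under the level in every group. Hair cell markers ran the other way along the cochlea: their mean at P8 was 7.66 and 7.72 in the base and 8.21 and 8.42 in the apex. The 4 genes of supporting cells and the tectorial membrane were all higher in the P8 apex (median 1.31), as were 50.6% of all tested genes, and 1 of the 4 fell with age.

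The 6 tested bone genes followed each other closely over the 12 arrays, with Pearson's r from 0.781 (Phex and Ifitm5) to 0.985 (Ibsp and Phex) over 15 pairs. This is a description of 12 arrays in 2 ages and 4 pools, and it holds mainly the step between the ages. Over the 6 P8 arrays alone r ran from -0.238 (Phex and Alpl) to 0.969 (Phex and Sp7), and over the 6 P0 arrays from -0.909 to 0.838. Within P8, Alpl followed Ifitm5 (r = 0.839), whereas Phex followed Dmp1 (r = 0.834) as well as Sp7.

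For each gene, the 3 tested genes with the most similar profile over the 12 arrays were named by Pearson's r. Ibsp was nearest to Rasl12, a Ras-like small GTPase (r = 0.987), Sfrp4, a secreted Wnt modulator (r = 0.985), and Phex (r = 0.985). Phex was nearest to Rasl12 (r = 0.994), Sfrp4 (r = 0.99) and Dio2, the deiodinase that activates thyroid hormone (r = 0.989). Both genes thus shared their first neighbours. Alpl was nearest to Tmem72, Them5 and the sodium-calcium exchanger gene Slc8a3 (r = 0.987 for each).

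Ifitm5 was nearest to Vsir, an immune checkpoint receptor gene (r = 0.968), Ptgfr, the prostaglandin F receptor gene (r = 0.954), and Pth1r (r = 0.948). Dmp1 was nearest to Slc36a2, an amino acid transporter gene (r = 0.965), Ostn, which encodes the secreted peptide osteocrin (r = 0.949), and Mrap (r = 0.948). Sp7 was nearest to Sgms2, a sphingomyelin synthase gene (r = 0.984), Slfn5 (r = 0.982) and the laminin gene Lama2 (r = 0.981). No gene of these triplets was among the 3 nearest by Spearman's rho.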

How the data were processed

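RNA of pooled cochlear pieces was measured on 12 Affymetrix Mouse Gene 1.0 ST arrays. The authors turned the scans into signals and normalized them by RMA, and the deposited values are these log2 signals, with no version given in the sources used here. It is not stated whether all arrays went through 1 run of RMA. Array medians were 7.21 to 7.29, and precision is limited by how few the arrays are.

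Of 35556 entries, 21789 carried 1 gene symbol and 1621 several, and 12146 were unnamed in the annotation used. Where a gene had more than 1 entry, that of the highest mean over the arrays was kept. Tests used limma 3.58.1 under R 4.3.3 (lmFit and eBayes, 6 group means, all arrays, no block, since the methods of the study name an unpaired test) on genes with a group mean above 6. A call asked for an adjusted p under 0.05 and a 1.5-fold difference (2-fold for the mean of 3 regions), with no fold for the change of the apex-base difference. The script was tested on simulated data for the mean of 3 regions without a block, with noise drawn independently for each array. That run does not cover arrays that vary together, the regional contrasts or the blocked fits. The p-values measure the spread between these arrays. For a mean under 6 on the lower side the difference is a lower bound.

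At each age the 3 regions of 1 dissection share a pool, as the methods state. The replicate numbers follow the sample titles, which carry 1 year for replicate 1 and a later year for replicate 2. They pair the arrays, and what the year stands for is not stated. The dissection set cannot be told apart from this label. Deviations of arrays of the same dissection set correlated at 0.544 to 0.916 over 15 pairs of groups. The dissection set (added to the 6 group means) and the pool of each age (regional contrasts) were fitted as replicate blocks. Filters, scalings, the entry per gene, the variance model, the methods' t-test and leaving out each array were further alternatives. Arrays were left out without a block and with the dissection set as a block, but not with the pool as a block.

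The 9 genes and all lists were chosen with earlier results of these data known. Named beside them are, per bone list, at most 4 genes past the test between ages or between apex and base, and per gene the 3 nearest profiles. The lists, whose genes with no entry of 1 symbol are left out, are osteoblast matrix genes, osteoblast factors and receptors, osteocyte genes, mineral inhibitors, relatives and neighbours, and markers of osteoclasts, cartilage, tendon and ligament, skeletal muscle, red blood cells, macrophages, hair cells, supporting cells and tectorial membrane, and stria vascularis and lateral wall. Python 3.11.15 with pandas 2.3.3 and numpy 2.4.6 made the tables, and matplotlib 3.10.9 the plots.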

Additional observations from a re-analysis of the deposited data

Results flagged for a closer look

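Between P0 and P8 the apex-base difference changed by more than the test allows for 3 genes with a block in the fit. For Ifitm5 the change was -1.54 on the log2 scale, from 0.03 at P0 to -1.51 at P8. It passed in limma with the dissection set or the pool as a block (adjusted p = 0.0366 and 0.00218) and not without one (adjusted p = 1). The call with the dissection set was lost in most fits with 1 array left out, as given above. Over the alternatives the change ran from -1.75 to -1.33.

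For Ibsp the change was -2.23. The apex was above the base in both P0 pools (1.75 and 0.20) and under it in both P8 pools (-0.62 and -1.89), and the change passed with the pool as a block (adjusted p = 0.0448 from limma) and not with the dissection set (adjusted p = 0.253) or without a block (adjusted p = 1). Without the P0 apex array of replicate 1 it was -1.17. The P0 apex array of replicate 1, which carried the value of 1.75, is also the array with the highest skeletal muscle markers.

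For Dmp1 the change was -1.51, from 0.01 and 0.43 in the P0 pools to -1.16 and -1.42 in the P8 pools, and it passed with the pool as a block (adjusted p = 0.00339 from limma) and not with the dissection set (adjusted p = 0.355) or without a block (adjusted p = 1). Groups of 2 arrays are too small to look for single outlying arrays by a rule.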

How the results depend on the processing

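The directions of the 6 genes' called differences held under every alternative run. For P8 over P0 as the mean of 3 regions, 6 of 6 genes passed with the dissection set block, the other filters, scalings, entries and variance model, the methods' t-test and any 1 array left out, and 0 of 6 with 1 value per pool. Within regions, a fit on the compared groups alone gave 2 genes each in base and middle and 0 in the apex, and the methods' t-test after adjustment gave 0 in each. In the apex the dissection set as a block gave 5 and the unadjusted t-test 1. With each array left out in turn the counts were 3 to 6 (base), 2 to 5 (middle) and 1 to 3 (apex).

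For apex over base at P8, where 0 genes passed, the dissection set as a replicate block gave 1, the pool as a replicate block 5, arrays centred on their medians 1, repeated quantile normalization 1, the unadjusted t-test 1, and leaving out 1 array 0 to 1. For the change of the apex-base difference the blocks gave 1 and 3. The block changed no call in the P8 to P0 contrast over 3 regions, in the base, or between apex and base at P0.

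Over all tested genes, the count higher at P8 over the 3 regions was 336, and 1552 with no fold threshold and 5 with 1 value per pool. Higher in the base, middle and apex were 382, 387 and 395 genes, with 1023, 1005 and 979 under the dissection set block, 29, 23 and 58 with the compared groups alone, 0 under the adjusted t-test, and down to 85, 115 and 156 with 1 array left out. Lower in the apex at P8 were 3 genes, and 0 to 206 under the alternatives. The cause of these shifts was not tested. By Spearman's rho none of the 3 nearest genes of any of the 6 stayed, and with the dissection sets centred 0 to 2 did.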

Other observations

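At P8 the dissection sets stood apart in ways that differed between the bone genes. Over the 3 regions, replicate 1 was above replicate 2 for Dmp1 (means of 8.56 and 7.56), Sp7 (8.75 and 8.03), Phex (10.03 and 9.36), Ibsp (11.77 and 11.29) and Mepe (5.78 and 5.12). It was below replicate 2 for Alpl (9.36 and 9.92) and Ifitm5 (8.15 and 8.53). At P0 the same 2 genes were lower in replicate 1, Alpl at 7.44 and 7.87 and Ifitm5 at 7.07 and 7.20. With 2 pools per age these offsets are values and were not tested.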
